A study of Homo sapiens with 7 samples.

Results

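The polyadenylation sites (PASs) described here lie in the last exon of noncoding RefSeq transcripts, that is, transcripts whose accession begins with NR_. They were taken by that label from 3 tables of read counts per PAS, each site once. Genes listed with symbols beginning with SNHG (small nucleolar RNA host genes), GAS5, NEAT1 and MALAT1 were left out. The rule used the symbols as listed, so host genes under other symbols stayed in, such as C7orf40, now SNHG15. This gave 1447 sites in 661 genes of 54353 sites in the table of batch 1, 903 sites in 507 genes of 47360 in the table of the double knockdown, and 709 sites in 432 genes of 36828 in the table of batch 2. Over all tables the sites numbered 1910 in 736 genes, and 360 were listed in every table.

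All libraries came from HEK293, a human embryonic kidney cell line, transfected with siRNA. Batch 1 held 1 library each of siCtrl (a control siRNA), siStarPAP (against the noncanonical poly(A) polymerase Star-PAP), siPAPa (against PAPα) and siPAPg (against PAPγ), all made by 3′READS. A further 3′READS library was labelled siPAPag, the joint knockdown of PAPα and PAPγ, and its table repeated the siCtrl library of batch 1, so its batch is not known. Batch 2 held 1 siCtrl and 1 siStarPAP library made by 3′READS+. The comparison asked how the level of noncoding RNAs ending at these sites changed when each polymerase was reduced. Of the knockdowns, only siStarPAP had a library in both batches, and nothing in the labels says whether the batches were separate cultures. All other differences compare 1 library with 1 library and carry no test.

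Long noncoding RNAs made by RNA polymerase II are mostly cleaved and polyadenylated by the same machinery as mRNAs. A signal hexamer, AATAAA or a close variant, is bound shortly upstream of the cleavage site, and a poly(A) polymerase then adds the tail. Nuclear noncoding RNAs are often short-lived, and in human nuclei the poly(A) tail made by PAPα and PAPγ together with PABPN1 is part of a pathway that feeds such RNAs to the exosome. Star-PAP, encoded by TUT1, acts on a selected set of transcripts. Transcribed pseudogenes, which make up much of the rest of the NR_ class, are copies of coding genes, and reads from their ends can be hard to tell from reads of the parent gene.

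The sequences that end at the leading sites are given because they show what kind of 3′ end each RNA used. Each line holds the last 30 bases up to and including the site, 5′ to 3′, read from the hg19 genome, with the hexamer in capitals. The sites are chr10:8092413-8092442 on the minus strand (GATA3-AS1, listed as FLJ45983), chr7:1629233-1629262 plus (PSMG3-AS1, listed as KIAA1908), chr1:95428797-95428826 plus (CNN3-DT, listed as LOC729970), chr22:25857610-25857639 plus (CRYBB2P1), chr9:37090364-37090393 plus (EBLN3P, listed as LOC100506710), chr6:139018396-139018425 plus (NHSL1-AS1, listed as FLJ46906), chr15:93441290-93441319 plus (CHASERR, listed as LOC100507217), chr19:36031640-36031669 minus (TMEM147-AS1, listed as LOC100506469), chr6:163834097-163834126 minus (CAHM, listed as LOC100526820), chr5:111497975-111498004 plus (EPB41L4A-AS1), chr16:54952965-54952994 and chr16:54952843-54952872 minus (the proximal and distal sites of CRNDE) and chr19:49995536-49995565 plus (RPL13AP5).
GATA3-AS1: gatcggtcAATAAAaacggtgtgaagcggc
PSMG3-AS1: atctgcAATAAAaactctgtatgcattaaa
CNN3-DT: aggttAATAAAgctttttattgagtgttta
CRYBB2P1: agtgctaAATAAAtgttattctcgtccgtt
EBLN3P: acacAATAAAatctattcagagaaggcaaa
NHSL1-AS1: tgtccaAATAAAtcctctaaagccctcttc
CHASERR: atttttAATAAAatttgtaacacttaaaaa
TMEM147-AS1: cATTAAActcatgtaaccttcacaacccga
CAHM: tccATTAAAataatgcagagttatttaata
EPB41L4A-AS1: agtgaggatgtgAATAAAtatattaatgca
CRNDE proximal: tttccaATTAAAatcctcagttgtcacgca
CRNDE distal: aggaaaaataaAATAAAttgtataggttga
RPL13AP5: gtaatcagaAATAAAttgcttttaaagaaa

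In batch 1, 651 of the 1447 sites (45.0%) had AATAAA on the transcript strand within the 40 bases before the site. The share at the 36145 last-exon sites of coding (NM_) transcripts was 46.3%. Among sites with more than 50 reads in the table, AATAAA stood before 163 of 292 noncoding sites (55.8%) and before 57.1% of 16166 coding ones. ATTAAA without AATAAA stood before 12.3% and 17.1% of them. The shares for AATAAA thus lay within 2 percentage points of each other in both sets.

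Several of the best-read sites were not ends of noncoding genes alone. Against the GENCODE release 44 annotation on the same genome build, 205 of the 292 sites with more than 50 reads in batch 1 fell on exons of noncoding transcripts only, 43 outside any annotated exon and 6 in introns of coding genes. A further 23 fell at the annotated end of a coding transcript and 15 elsewhere on an exon of one. Including sites that the table also lists under an NM_ gene, 49 of the 292 were on coding transcripts, and 243 were not. The table gives the same position to HNRNPA1P10 and to HNRNPA1, which encodes a splicing factor, to SLMO2-ATP5E and to ATP5E, a subunit of ATP synthase, and to RPL13AP5 and RPL13A, a ribosomal protein gene. FLJ23867 shares its site with QSOX1, and RNF5P1 shares its site with the ubiquitin ligase gene RNF5. LOC152217 is now the coding gene NCBP2AS2, and GENCODE gives TUG1 a coding transcript. The leading site of HNRNPU-AS1 is the end of a noncoding transcript that GENCODE assigns to the coding gene HNRNPU on the same strand. It was kept with the sites off coding transcripts. By RefSeq's present types, 171 of the 292 sites belonged to lncRNA genes, 94 to transcribed pseudogenes, 16 to protein-coding genes and 2 to other types, and 9 gene numbers had no match. The split by coding transcript was made after values had been seen and is used only to describe.

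The noncoding sites held a small share of each library. Leaving out 1 gene that is counted but not described, they took 0.455% of the siCtrl reads in batch 1 (95% exact binomial interval 0.451 to 0.460%), 0.381% under siStarPAP, 0.605% under siPAPa and 0.510% in the library labelled siPAPg. Sites on coding transcripts took 33.2% of these reads in siCtrl and 60.6% in siPAPa. At the sites off coding transcripts the share was 0.304% in siCtrl (0.300 to 0.308%), 0.193% under siStarPAP (0.191 to 0.196%), 0.239% under siPAPa and 0.263% in the library labelled siPAPg. In batch 2 the same share was 0.560% in siCtrl (0.552 to 0.569%) and 0.456% under siStarPAP (0.447 to 0.464%). In the table of the double knockdown it was 0.279% in siCtrl and 0.298% in the library labelled siPAPag. The share off coding transcripts was thus lower under siStarPAP in both batches, and higher in the library labelled siPAPag. Without GATA3-AS1, described below, it was 0.276% in siCtrl of batch 1, 0.189% under siStarPAP, 0.236% under siPAPa and 0.259% in the library labelled siPAPg, and 0.251% and 0.295% in the table of the double knockdown. These intervals, like all intervals below, cover counting error only, since reads amplified by PCR are not independent molecules.

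The deposited tables held 8098799 to 16245257 reads per library in batch 1 and 2362875 to 2776382 in batch 2. Levels are given as RPM, reads scaled to each library's total of PAS supporting (PASS) reads. The tables held 70.9% of these reads for siCtrl of batch 1 and 58.2 to 67.5% for the knockdown libraries set against it. RPM ratios of all sites lay below 0 at the median in every comparison, and the part of the unequal table shares in this was not tested, so each median is given beside that of all sites. TUT1 had 83 reads in siCtrl and 2 in siStarPAP of batch 1, and 6 and 4 in batch 2 (1.19 and 0.941 RPM). In batch 2 these reads were too few to tell whether TUT1 fell, so the siStarPAP library there rests on its label. PAPOLA, which encodes PAPα, had 71 reads in siCtrl and 12 under siPAPa, and 78 and 8 in the table of the library labelled siPAPag. PAPOLG, which encodes PAPγ, had 5 reads in siCtrl, 15 in the library labelled siPAPg and 6 in the library labelled siPAPag (0.438, 1.01 and 0.319 RPM), so it was not lower in the library labelled siPAPg, and its reads were too few to tell in the library labelled siPAPag. Of the markers listed for HEK293 cells, KRT18 (783 to 3927 RPM), VIM (42.8 to 152 RPM) and NEFL (9.85 to 41.6 RPM) were read in every library. KRT8 was low throughout (0.396 to 3.24 RPM), and NEFM ranged from 0.235 to 11.8 RPM, lowest in batch 2. PTPRC, ALB, HBB, PECAM1 and CD3E had no read in any library, and COL1A1 had 0 to 12 reads.

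Levels spread over a wide range. HNRNPA1P10, whose leading site is the end of HNRNPA1 at position 54678665 of chromosome 12, stood first at 808 RPM (mean of the 4 libraries of batch 1), and SLMO2-ATP5E followed at 356 RPM. The leading genes off coding transcripts were TMEM147-AS1, antisense to TMEM147, at 110 RPM, CAHM at 93.9 RPM and GATA3-AS1 at 66.3 RPM. CRYBB2P1, a pseudogene of a lens crystallin, had 53.4 RPM, TUG1 had 49.2 RPM, MIR4453HG, a microRNA host gene, had 44.3 RPM, EPB41L4A-AS1 had 42.8 RPM and CRNDE had 40.8 RPM. The twentieth gene, CHASERR, an RNA next to CHD2 that is known to restrain it, had 33.2 RPM. Below them, 1155 of the 1447 sites had 50 reads or fewer over the 4 libraries and were not compared.

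**Figure D1:**
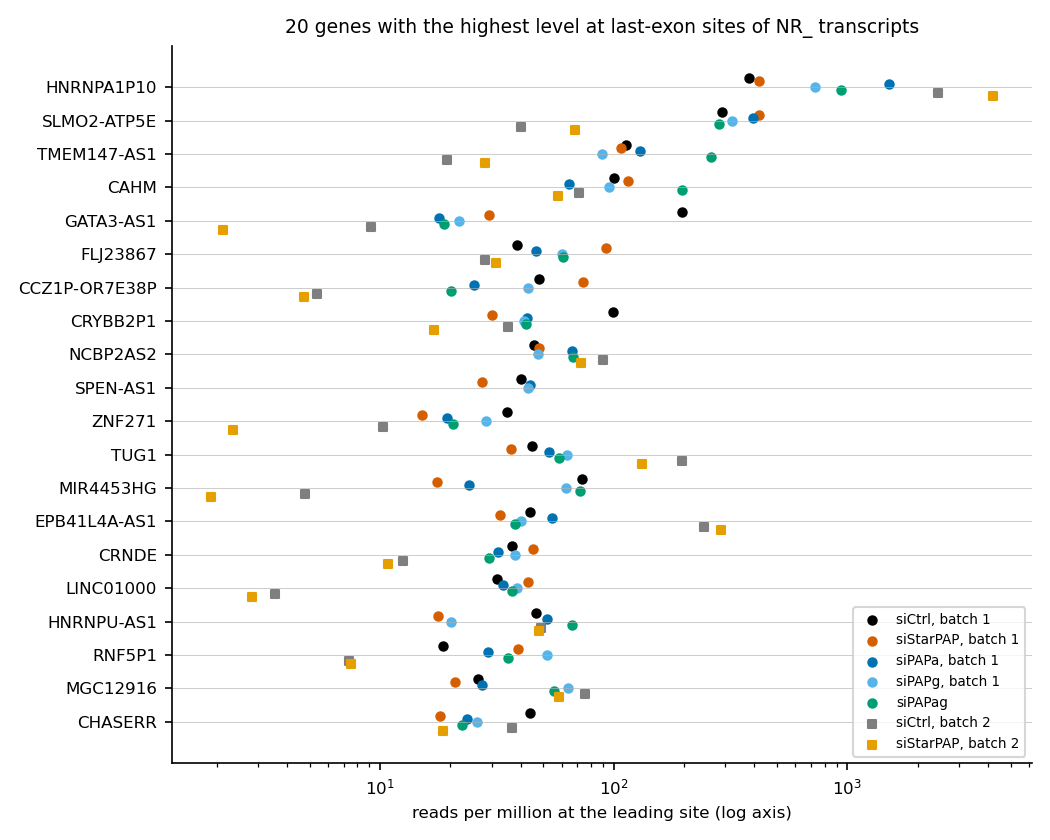
RPM (log axis) at the leading site of the 20 genes with the highest mean level in batch 1, with 1 point per library, circles for 3′READS and squares for 3′READS+ (batch 2). GATA3-AS1 lay at 196 RPM in siCtrl of batch 1 and between 17.8 and 29.4 RPM in every other 3′READS library; a gene without a point for a library has no read there or is not listed in that table.

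Levels also differed between the batches before any knockdown. EPB41L4A-AS1 stood at 43.8 RPM in siCtrl of batch 1 and 243 RPM in siCtrl of batch 2, and TUG1 at 44.7 and 197 RPM. GATA3-AS1 went the other way, from 196 to 9.11 RPM, and MIR4453HG from 72.9 to 4.75 RPM. Library protocol and batch cannot be told apart here, and every ratio below was taken within a table.

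Under siStarPAP in batch 1 the noncoding sites lay lower than the rest. Of the 292 sites with more than 50 reads, 120 (41.1%) were down past 2-fold and 31 (10.6%) up past 2-fold against siCtrl. Of all 18513 sites compared on the strand of their gene, 31.7% were down and 10.0% up. The median log2 ratio was -0.71 over the 280 noncoding sites read in both libraries and -0.44 over all sites, a difference of -0.27 that no rescaling of the libraries changes. Sites off coding transcripts had a median of -0.80, with 107 of 243 down and 24 up, and sites on coding transcripts had a median of -0.24, with 13 of 49 down and 7 up. With edgeR's TMM factors, which add 0.45 to every log2 ratio of this pair, 87 of the 292 sites were down and 53 up, beside 20.3% down and 17.8% up of all sites.

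The difference was wider at sites of fewer reads. Among sites with 51 to 100 reads the median was -0.97 for 106 noncoding sites and -0.53 for 3379 coding last-exon sites read in both libraries. With 101 to 200 reads it was -0.83 and -0.58, and with more than 200 reads it was -0.41 for 106 noncoding sites and -0.37 for 9279 coding ones. The medians of noncoding and coding sites thus lay closest together at the well-read sites. These bins include sites on coding transcripts. Off coding transcripts the medians were -1.02, -0.97 and -0.46 in the same order, each below that of coding sites. With more than 200 reads, 29 of 86 such sites were down past 2-fold, beside 25.5% of coding ones. By type, lncRNA genes and transcribed pseudogenes had medians of -0.75 (164 sites) and -0.73 (92 sites). By the symbols as listed, antisense and intronic RNAs (24 sites) had a median of 0.04, and 135 sites of uncharacterised loci (symbols such as LOC and FLJ) had -0.78. RNAs now named as antisense but listed under such symbols, among them GATA3-AS1, NHSL1-AS1 and TMEM147-AS1, were counted with the uncharacterised loci. These medians therefore do not compare antisense RNAs with other RNAs. Sites with and without AATAAA had medians of -0.80 and -0.53, beside -0.46 and -0.42 at coding last-exon sites. The 95% intervals of the noncoding medians, taken over sites, overlapped (-1.12 to -0.53 and -0.89 to -0.26).

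Batch 2, where TUT1 reads were too few to check the label, gave the same direction with smaller ratios. Of 88 sites with more than 50 reads, 21 were down past 2-fold and 2 up, beside 12.5% down and 4.92% up of 7378 sites. The median was -0.34 for the noncoding sites and -0.15 for all sites, a difference of -0.19. Off coding transcripts it was -0.44, with 20 of 71 down and 1 up, and on coding transcripts it was 0.10, with 1 of 17 down and 1 up. Here too the gap was widest at sites of few reads. The median was -0.54 against -0.22 for coding sites with 51 to 100 reads, and -0.05 against -0.11 with more than 200 reads. Off coding transcripts alone it was -0.59 and -0.22 in the same order, below that of coding sites in each bin. With more than 200 reads, 5 of 29 such sites were down past 2-fold, beside 8.39% of coding ones. With TMM factors 12 sites were down and 4 up, beside 8.65% down and 8.67% up of all sites.

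**Figure D2:**
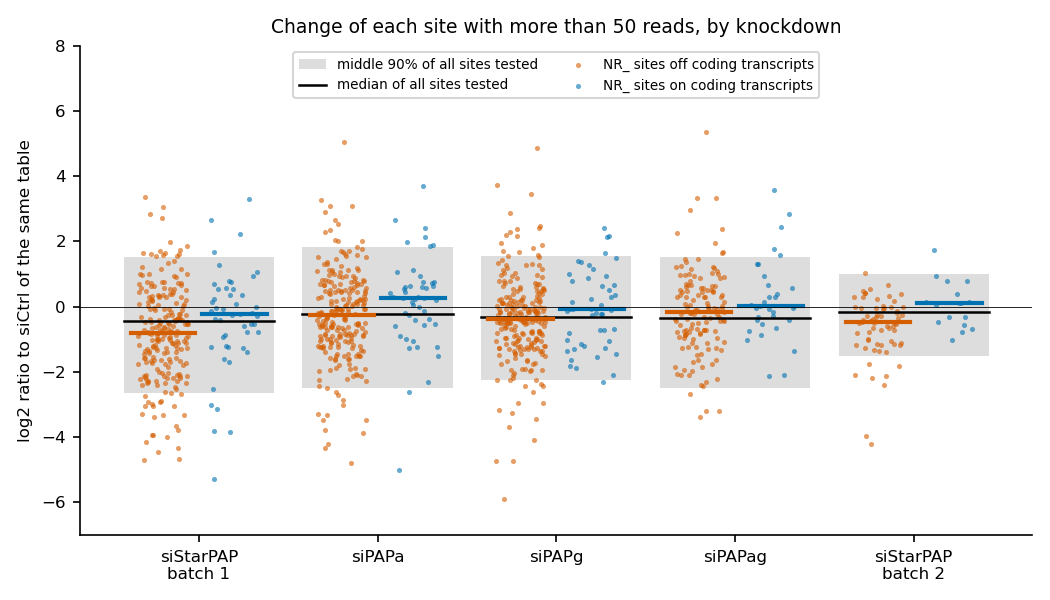
Log2 ratio to the siCtrl library of the same table for each noncoding last-exon site with more than 50 reads and a read in both libraries, off coding transcripts (orange) and on them (blue), with coloured lines at each median, a black line at the median of all sites tested and a grey band over their middle 90%. The orange median lies below the black line for siStarPAP in both batches (-0.80 against -0.44, and -0.44 against -0.15) and above it for siPAPag (-0.21 against -0.35); the sites of 1 gene that is not described are not drawn.

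To ask which sites moved in both batches, the 4 siCtrl and siStarPAP libraries were fitted together in edgeR's quasi-likelihood test with batch as a block. Of 192 noncoding sites tested, 2 fell and 1 rose at an adjusted p below 0.05 (Benjamini-Hochberg over all 14101 sites), beside 1.22% down and 1.21% up of all sites. At an unadjusted p below 0.05 there were 19 down and 9 up. Sites of all kinds were not counted at that threshold, so these counts have no background to be read against. The median fitted log2 fold change was -0.19 over the 192 sites and -0.035 over all sites. Without batch as a block 0 sites of any kind passed. The fit had 1 residual degree of freedom per site, so its p-values measure only the spread between these few libraries, which may be technical.

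GATA3-AS1, transcribed away from the gene of the transcription factor GATA3, fell. Its site at position 8092413 of chromosome 10 had 2242 reads in siCtrl and 486 under siStarPAP in batch 1, and 46 and 9 in batch 2. The log2 ratio was -2.74 (-2.88 to -2.60) in batch 1 and -2.10 (-3.32 to -1.06) in batch 2, and the fitted value was -2.16 ± 0.43 (SE, edgeR adjusted p = 0.00075). The site was also lower in the other knockdown libraries of 3′READS, with 447 reads under siPAPa, 321 in the library labelled siPAPg and 353 in the library labelled siPAPag, at log2 ratios of -3.46, -3.18 and -3.38 against the same siCtrl library. All 4 knockdown libraries lay between 17.8 and 29.4 RPM and the siCtrl library they share at 196 RPM, so in batch 1 these ratios rest on 1 high control. The siCtrl library of batch 2 stood at 9.11 RPM, below every knockdown library of the other batch.

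PSMG3-AS1, which lies beside the proteasome chaperone gene PSMG3, lost its last-exon reads. The site at position 1629262 of chromosome 7 had 43 reads in siCtrl and 0 under siStarPAP in batch 1, and 24 and 0 in batch 2 (edgeR adjusted p = 0.0039). With 3 reads in place of each 0 and the siCtrl count taken as exact, the level was 20.8-fold lower in batch 1 and 6.73-fold lower in batch 2. The exact interval of the log2 ratio, which also covers counting error in siCtrl, had its upper end at -4.02 in batch 1 and -2.34 in batch 2. The other knockdown libraries kept it, with 61 reads (2.43 RPM) under siPAPa, 28 (1.89 RPM) in the library labelled siPAPg and 43 (2.29 RPM) in the library labelled siPAPag, beside 3.76 RPM in siCtrl. Both siStarPAP libraries were at 0 and no other library was. DESeq2 gave this site no adjusted p.

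RPL13AP5 rose, but at a site that is also the end of RPL13A. At position 49995565 of chromosome 19 there were 5 reads in siCtrl and 23 under siStarPAP in batch 1, and 170 and 477 in batch 2. The log2 ratios were 1.67 (0.24 to 3.42) and 1.74 (1.48 to 2.00), and the fitted value was 1.96 ± 0.45 (SE, edgeR adjusted p = 0.0051). Against the same siCtrl library of batch 1 it was also higher under siPAPa (141 reads, 3.68), in the library labelled siPAPg (34 reads, 2.39) and in the library labelled siPAPag (97 reads, 3.56). Reads of the pseudogene and of the ribosomal protein gene cannot be told apart at this position.

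There were 40 sites that had more than 50 reads in both pairs of siStarPAP and siCtrl libraries. The log2 ratios of the 2 batches differed with an SD of 0.92 over these sites, as they did over 5108 sites of all kinds (0.89), so a ratio of about 1 in 1 batch was within the spread between batches. Across these sites Pearson's r was 0.43 and Spearman's rho 0.46, given as a description, since all points share the same 4 libraries. Of the 40 sites, 24 were below 0 in both batches and 4 above 0 in both, beside 47.1% below and 20.5% above of the 5108 sites. Of the 28 sites off coding transcripts, 19 were below 0 in both and 0 above 0 in both, and of the 12 on coding transcripts 5 were below and 4 above. Set against the median of all sites in each batch in place of 0, the balance was smaller, with 14 of the 40 below and 9 above in both, and 12 of the 28 below and 3 above, beside 1680 below and 1680 above of the 5108 sites.

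Past 2-fold in both batches were 6 of the 40 sites, all down, beside 6.48% down and 1.43% up of the 5108 sites. They were picked out after their values were seen. They were GATA3-AS1, CRYBB2P1, BAIAP2-DT (listed as FLJ90757), SMPD4BP (listed as LOC150776), a site of ZNF271 at position 32887927 of chromosome 18 and SEPT5-GP1BB, whose site is the end of the platelet glycoprotein gene GP1BB. CRYBB2P1 had 1137 and 498 reads in batch 1 and 179 and 72 in batch 2, log2 ratios of -1.73 and -1.07. SMPD4BP, a pseudogene of a sphingomyelinase gene, had 168 and 81 reads, then 501 and 185, ratios of -1.59 and -1.19. In the joint fit neither passed (edgeR adjusted p = 0.13 and 0.14). SMPD4BP was at 0.64 under siPAPa, -0.13 in the library labelled siPAPg and 0.30 in the library labelled siPAPag, whereas CRYBB2P1 lay between -1.22 and -1.26 in all 3, from 99.5 RPM in siCtrl to 41.5 to 42.6 RPM.

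**Figure D3:**
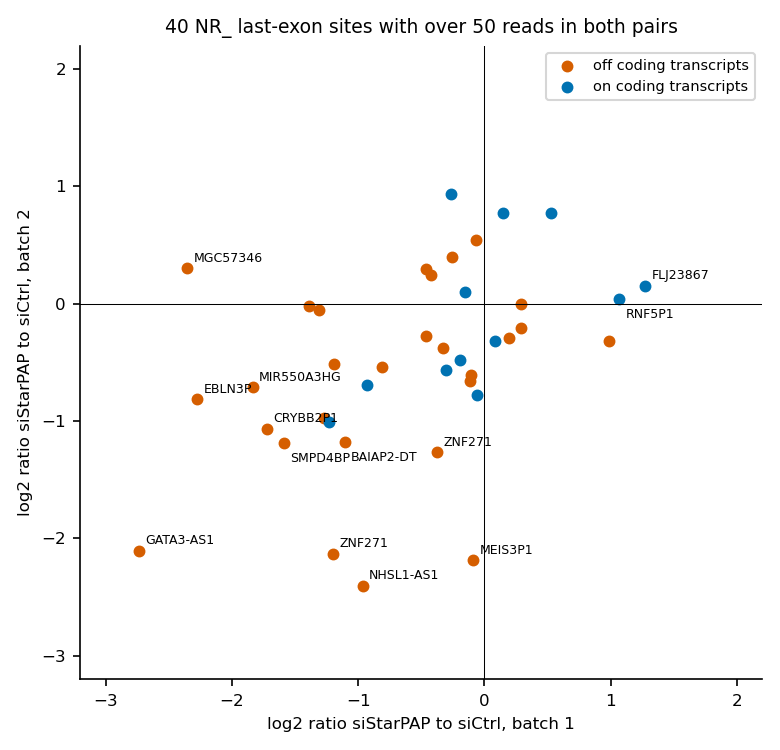
Log2 ratio of siStarPAP to siCtrl in batch 1 (x axis) and batch 2 (y axis) for the 40 noncoding last-exon sites with more than 50 reads in both pairs, off (orange) and on (blue) coding transcripts. Of the 28 orange points, 19 lie below 0 on both axes and 0 above 0 on both, and 12 lie below and 3 above the median of all sites in both batches.

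The widest ratios of batch 1 could be set beside batch 2 only in part. In batch 1, among sites with more than 200 reads, CNN3-DT, transcribed away from the calponin gene CNN3, had 86 reads in siCtrl and 9 under siStarPAP (-3.79, -4.97 to -2.80), CIDECP had 38 and 7 (-2.97), and PRR34-AS1 (listed as LOC150381) had 236 and 46 (-2.89). CNN3-DT had 13 and 2 reads in batch 2 (-2.45, -5.64 to -0.31), and 168, 54 and 137 reads under siPAPa and in the libraries labelled siPAPg and siPAPag (-0.17, -1.04 and -0.05). Its fitted change did not pass (-2.94 ± 0.98, edgeR adjusted p = 0.098). CIDECP, a pseudogene of the lipid droplet gene CIDEC, had 6 and 5 reads in batch 2, too few to compare. PRR34-AS1 was not compared in batch 2. The highest ratios were at the 2 sites of RPL13AP5 (3.30 and 1.67) and at TP73-AS1 (GFOD3P in RefSeq), next to the p53 relative TP73, which had 2 reads in siCtrl and 19 under siStarPAP (2.71, 0.66 to 5.86). The filter summed all libraries of batch 1, so TP73-AS1 and the RPL13AP5 site at 1.67 passed it mainly through the other knockdown libraries. In batch 2 the same TP73-AS1 site had 102 and 39 reads (-1.14, -1.71 to -0.59), the opposite direction.

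In batch 2 the lowest ratios among sites with more than 200 reads were those of NHSL1-AS1, antisense to NHSL1, from 415 to 66 reads (-2.40, -2.80 to -2.03), the most proximal site of ZNF271, a zinc finger pseudogene, from 475 to 166 (-1.27), and AFG3L1P, a pseudogene of a mitochondrial protease, from 404 to 149 (-1.19). In batch 1 NHSL1-AS1 had 214 and 159 reads (-0.96) under siStarPAP, and -1.51, -1.21 and -1.32 in the other knockdown libraries. Its fitted change was -1.35 ± 0.42 (edgeR adjusted p = 0.063). The highest among these sites were those of RPL13AP5 (1.74), SLMO2-ATP5E, from 202 to 291 reads (0.78), and HNRNPA1P10, from 12397 to 17845 reads (0.77), all 3 at ends of coding genes. EBLN3P, a pseudogene that descends from a bornavirus nucleoprotein gene, had ratios of -2.27 and -0.82 (edgeR adjusted p = 0.11), and CHASERR had -1.27 and -0.98 (edgeR adjusted p = 0.35).

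**Figure D4:**
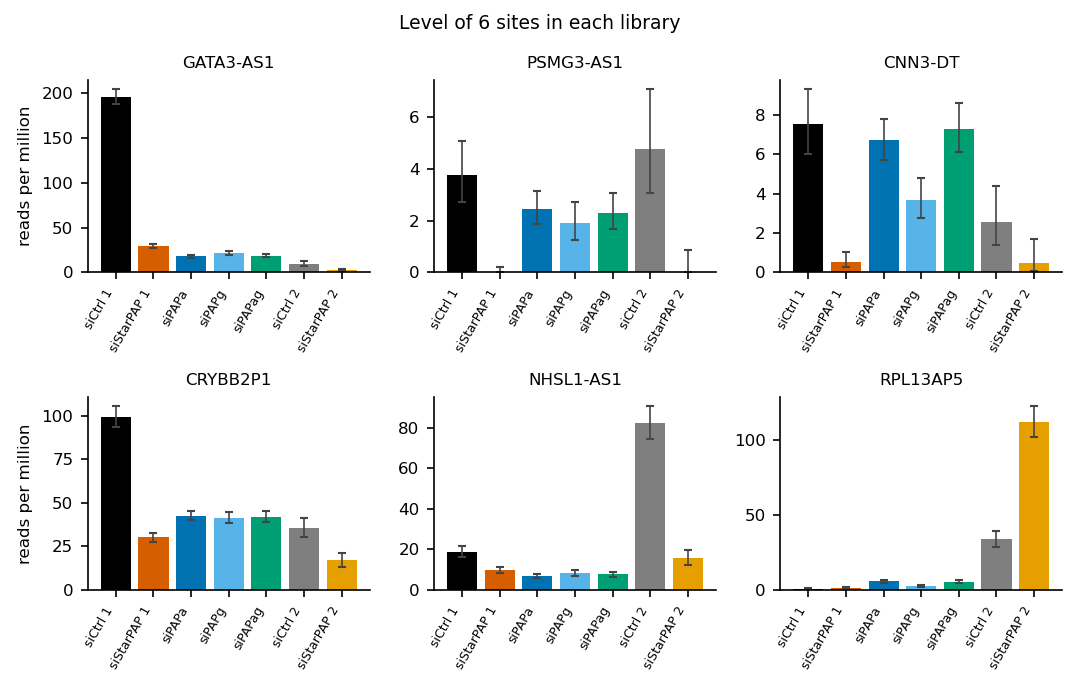
RPM at 6 sites in each of the 7 libraries, with bars for the value and whiskers for the exact 95% binomial interval (counting error only); each panel has its own axis from 0. PSMG3-AS1 was at 0 in both siStarPAP libraries and between 1.89 and 4.75 RPM elsewhere, whereas GATA3-AS1 and CRYBB2P1 were lower than siCtrl in every knockdown of batch 1.

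Under siPAPa the noncoding sites moved both ways. Of the 292 sites, 75 were down and 50 up past 2-fold, beside 26.6% down and 14.8% up of all sites, so the share down was near the background. The median was -0.18, and that of all sites -0.24. With TMM factors 50 were down and 79 up, beside 17.8% and 23.6% of all sites, so the sign of the balance depends on the scaling. Off coding transcripts the median was -0.30, and on them it was 0.27. The lowest ratios among sites with more than 200 reads were those of GATA3-AS1 (-3.46), BAIAP2-DT, from 104 to 28 reads (-3.03, -3.68 to -2.41), and LINC02381, in the HOXC cluster and listed as LOC400043, from 59 to 21 (-2.62, -3.42 to -1.88). The highest were those of TP73-AS1, from 2 to 144 reads (5.04, 3.16 to 8.09), and the RPL13AP5 sites, from 5 to 141 and from 38 to 447 reads (3.68 and 2.42). The filter summed the reads of all 4 libraries of batch 1. The sites with 2 and 5 siCtrl reads passed it only through the knockdown libraries, where they were high, so the filter itself favours such rises. HNRNPA1P10 went from 4337 to 37842 reads (1.99, 1.95 to 2.04).

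In the library labelled siPAPg, 85 sites were down and 45 up past 2-fold, beside 25.4% down and 11.2% up of all sites. The median was -0.32, and that of all sites -0.31. With TMM factors 49 were down and 63 up, beside 15.7% and 18.6% of all sites. GATA3-AS1 (-3.18), BAIAP2-DT, from 104 to 25 reads (-2.43), and a ZNF271 site, from 171 to 54 reads (-2.04), had the lowest ratios among sites with more than 200 reads. TP73-AS1 was higher at both of its sites, from 2 to 75 reads (4.86, 2.95 to 7.93) and from 15 to 104 (2.42, 1.63 to 3.31), and RPL13AP5 went from 5 to 34 (2.39). Here too these sites passed the read filter mainly through the knockdown libraries. MGC12916, inside the gene of the sulfotransferase HS3ST3B1, went from 300 to 942 reads (1.28, 1.09 to 1.47), whereas under siPAPa it had 686 reads (0.06, -0.14 to 0.26). PAPOLG itself had not fallen in this library, so its reads do not check the label. The paper reports immunoblots of knockdown efficiency, which measure protein and not these reads.

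In the library labelled siPAPag, 41 of 175 sites were down and 29 up past 2-fold, beside 28.4% down and 10.7% up of 12994 sites. The median was -0.11 for the noncoding sites and -0.35 for all sites, a difference of 0.24 upward. Off coding transcripts it was -0.21. With TMM factors 28 were down and 47 up, beside 17.7% and 20.4% of all sites. GATA3-AS1 (-3.38), ZNF271, from 171 to 57 reads in this table (-2.30), and EBLN3P, from 431 to 198 (-1.84), had the lowest ratios among sites with more than 200 reads. RPL13AP5 (1.78 at the position 49995100), LINC00205 (listed as LOC642852), from 43 to 196 reads (1.47, 0.99 to 1.98), and HNRNPA1P10 (1.31) had the highest. TMEM147-AS1 had 1286 reads in siCtrl, 3238 under siPAPa, 1319 in the library labelled siPAPg and 4918 in the library labelled siPAPag, ratios of 0.20, -0.34 and 1.22 (1.13 to 1.31). CAHM had 1148, 1616, 1411 and 3670 reads, ratios of -0.64, -0.08 and 0.96 (0.86 to 1.06). Both noncoding RNAs were thus highest in the library labelled siPAPag among the libraries of 3′READS, where the PAPOLG reads were too few to check the label. Under siStarPAP they stood at -0.07 and 0.20 in batch 1 and at 0.54 and -0.30 in batch 2. No replicate checks these values, and all 4 knockdowns of 3′READS share 1 siCtrl library.

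Of 46 characterised noncoding RNAs looked for by name, 21 had a last-exon NR_ site in batch 1, and 11 had more than 50 reads in the siStarPAP and siCtrl pair when their sites were summed. Of these, 2 were down past 2-fold and 0 up, with a median of -0.42, beside 31.7% down, 10.0% up and a median of -0.44 over all sites. The comparison is not like for like. The median of the list ranks HOTAIR, at 0 reads, as lowest, whereas that of all sites leaves out sites without reads in either library. The list is also summed per gene and filtered on the pair, and the background holds single sites filtered over the whole table. HOTAIR, from the HOXC cluster, had 68 reads over its sites in siCtrl and 0 under siStarPAP in batch 1. At its leading site the counts were 48 and 0, with the upper end of the exact interval of the log2 ratio at -4.18. Batch 2 had 34 and 27 reads there (-0.08, -0.87 to 0.69), so the 2 batches differed. MCM3AP-AS1 had 206 and 70 reads summed (-2.09) in batch 1, and was not compared in batch 2. The other 9 lay within 2-fold of siCtrl. TUG1 had 511 and 600 reads in batch 1 (-0.30) and 993 and 564 in batch 2 (-0.57). EPB41L4A-AS1 had -0.42 and 0.24. NORAD, an RNA that binds Pumilio proteins, had 0.45 and -0.22 over its summed sites. PVT1, beside MYC, had -0.11 and -0.66, with intervals that span 0 in both batches. Under siPAPa 1 of 11 was down past 2-fold, HOTAIR, from 68 to 53 reads (-1.49), and in the libraries labelled siPAPg (12 RNAs) and siPAPag (10 RNAs) 0 passed 2-fold, beside 26.6%, 25.4% and 28.4% of all sites down in the 3 comparisons.

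Where a noncoding gene had several last-exon sites, their shares gave a view that does not depend on the scaling. In batch 1, 334 genes had 2 or more sites and 49 had 2 or more with more than 50 reads. These 49 include genes with sites on coding transcripts, such as HNRNPA1P10 and RPL13AP5, where the share also counts reads of the coding gene. They also include FAM45B, whose listed sites lay 8734151 nt apart, so that its share is not a choice within 1 last exon. The median span was 1317 nt, and others were far above it, such as PRR34-AS1 (20951 nt) and LINC01000 (8366 nt). Whether such sites share 1 last exon was not tested. Under siStarPAP the most distal site took a smaller share of the gene's reads in 33 of 46 genes than in siCtrl and a larger share in 13, and the 95% intervals lay apart in 12 and 4 of them. Among 3658 coding genes with 2 or more such sites it was smaller in 50.1% and larger in 49.8%, apart in 18.7% and 19.9%. Under siPAPa the share was smaller in 25 of 47 and larger in 22, apart in 11 and 8, beside 43.1% and 56.9% of coding genes, apart in 19.1% and 28.9%. In the library labelled siPAPg it was smaller in 32 of 47 and larger in 14, apart in 10 and 0, beside 48.5% and 51.4% of coding genes, apart in 17.0% and 18.9%. The median difference was -3.64, -0.50 and -3.48 percentage points for the noncoding genes and -0.037, 1.82 and 0.38 for the coding ones. The 3 comparisons share the siCtrl library.

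CRNDE, an RNA first described in colorectal tumours, used its distal site, 122 nt downstream, for 17.3% of 509 reads in siCtrl (14.1 to 20.9%), 2.61% under siStarPAP, 0.87% under siPAPa, 6.05% in the library labelled siPAPg and 6.48% in the library labelled siPAPag. In batch 2 the share was 21.2% in siCtrl (12.9 to 31.8%) and 35.2% under siStarPAP (24.2 to 47.5%), so the lower share was not seen there. EBLN3P used its distal site, 662 nt downstream, for 91.7% of reads in siCtrl and 57.6% under siStarPAP, 59.3% under siPAPa, 81.4% in the library labelled siPAPg and 61.7% in the library labelled siPAPag, but for 97.2% and 98.5% in batch 2. CHASERR used its most distal site for 14.3% in siCtrl, 7.5% under siStarPAP, 2.72% under siPAPa and 1.67% in the library labelled siPAPg, and for 0 of 459 reads (up to 0.80% by the exact interval) in the library labelled siPAPag. In batch 2 the shares were 8.53% and 5.62%, with intervals that overlap. Other genes went the other way. LINC01000 (listed as FLJ45340) used its distal site, 8366 nt downstream, for 91.2% in siCtrl (88.0 to 93.8%) and 96.3% under siStarPAP (94.7 to 97.6%), 94.7% both under siPAPa and in the library labelled siPAPg, and 97.1% in the library labelled siPAPag. HNRNPU-AS1 used it for 93.5% in siCtrl (91.2 to 95.4%) and 100% under siStarPAP (98.8 to 100%), 98.3%, 95.5% and 97.8% in the other knockdown libraries in the same order, but for 98.8% and 94.9% in batch 2. For CRNDE, EBLN3P and CHASERR the distal share was lower than siCtrl in every knockdown library of 3′READS, and in no case was the change under siStarPAP seen in batch 2 beyond counting error.

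**Figure D5:**
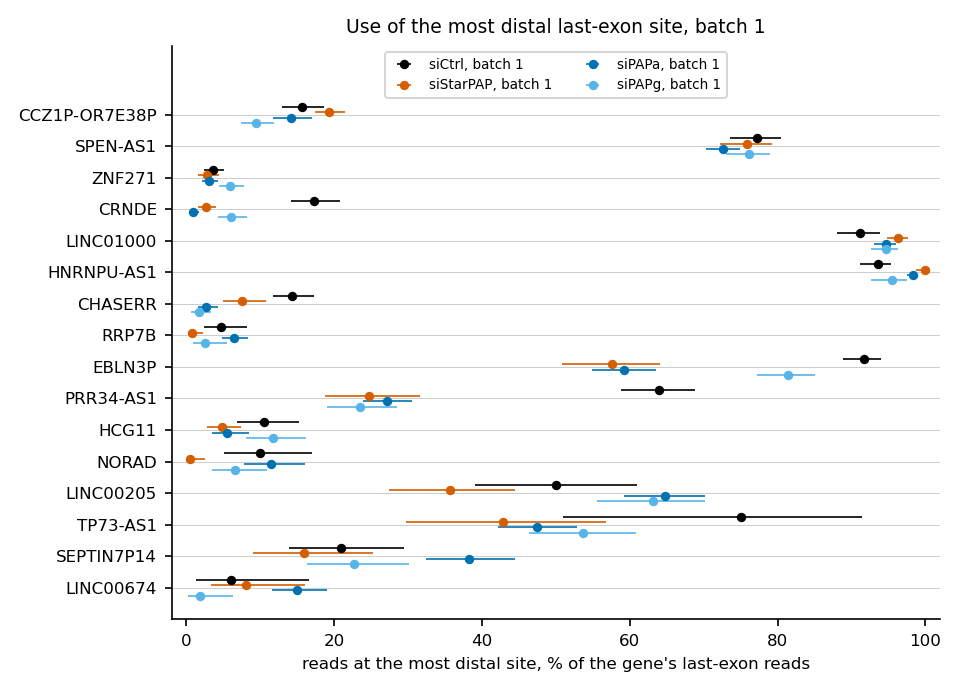
Share of a gene's last-exon reads at its most distal site (x axis, percent) in the 4 libraries of batch 1, for the 16 genes off coding transcripts with the most reads among those with 2 or more sites of more than 50 reads; whiskers are exact 95% binomial intervals. For CRNDE, CHASERR, EBLN3P and PRR34-AS1 (sites 20951 nt apart) the siCtrl point lies to the right of all 3 knockdowns, while SPEN-AS1 lay between 72.6 and 77.1% in all 4 libraries.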

How the data were processed

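HEK293 RNA 3′ ends were sequenced by 3′READS or 3′READS+. Per the paper's methods, the authors aligned the reads with Bowtie2 (genome build hg19), kept unique reads (MAPQ above 10) with at least 2 untemplated Ts, clustered PASs within 24 nt and deposited whole-number read counts per PAS. A site needed at least 2 reads and over 5% of its gene's reads in 1 sample. Columns were matched to samples by title, and no column was left unmapped. Tables held 8022550 to 16245257 reads per library for 3′READS and 2362875 to 2776382 for 3′READS+, which limits precision at sites of few reads.

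Counts were divided by the PASS read totals given by the study. Sites on the strand of the gene with more than 50 reads over the table's libraries were compared with siCtrl of the same table as log2 RPM ratios, with a 2-fold threshold and exact Clopper-Pearson 95% intervals. A median uses sites read in both libraries. siStarPAP was also tested over both batches with edgeR 4.0.16 (filterByExpr, TMM, quasi-likelihood, all site types) in R 4.3.3, with the batch given by the labels as the block that pairs the libraries. DESeq2 1.42.0 and the other alternatives are given below. The tests were checked on simulated counts. Sites were placed on GRCh37 with GENCODE release 44, and current names and types came from RefSeq by gene number. Named genes are the 20 with the highest mean RPM in batch 1, the 3 largest falls and rises per comparison among sites with more than 200 reads, the sites called by edgeR, and the characterised RNAs. The 200 reads are summed over the libraries of the table, so a site can pass through the group where it is high. XIST and genes on the Y chromosome stay in the counts and are not described one by one. The members, lists and rules were chosen with earlier results of these data known. The columns used hold counts only.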

Additional observations from a re-analysis of the deposited data

How the results depend on the processing

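With 1 library per condition and batch, no comparison other than siStarPAP over both batches has a test. The number of noncoding sites past 2-fold changed by over 1.5 times with the filter, as fewer or more sites were compared. With more than 200 reads in the table it was 40 under siStarPAP in batch 1, 39 under siPAPa and 41 for siPAPg, each of 106 sites. It was 17 of 58 for siPAPag and 6 of 37 in batch 2. Coding last-exon sites of that depth passed in 2937, 3123 and 2571 of 9283, 2021 of 6221 and 331 of 2837, in the same order. With at least 1 read in each library the number of noncoding sites was 277, 365, 314, 245 and 192. With more than 50 reads in the pair it was 63 under siStarPAP in batch 1 and 64 for siPAPg, and at 1.5-fold it was 193 under siPAPa, 106 for siPAPag and 39 in batch 2. Other sites were not counted at these last settings, so the counts there have no background to be read against. Median log2 ratios moved with the scaling. With TMM factors they were -0.27 for siStarPAP in batch 1, 0.21 for siPAPa, 0.070 for siPAPg and 0.35 for siPAPag, and with DESeq2 size factors -0.26, 0.17, 0.035 and 0.38, so that all but siStarPAP turned above 0. With table totals siPAPag turned to 0.16 and siPAPg stood at -0.051. With more than 200 reads the medians for siStarPAP were -0.41 in batch 1 and -0.053 in batch 2, and -0.46 and -0.22 off coding transcripts. Leaving out genes with an NM_ row removed no site, since a gene carries 1 transcript in each table, and so tested nothing.

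Without GATA3-AS1 (chosen after seeing the data), the log2 ratio of the share of reads off coding transcripts was -0.55 instead of -0.65 for siStarPAP in batch 1, -0.23 instead of -0.35 for siPAPa, -0.092 instead of -0.21 for siPAPg and 0.23 instead of 0.097 for siPAPag. Leaving out sites on coding transcripts, also chosen later, kept every count within 1.5 times and every median on its side of 0.

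Without the replicate block, 0 of 192 noncoding sites were called by edgeR (2 lower and 3 higher if p is left unadjusted, at 0.05), and TP73-AS1 turned to -0.82. The unadjusted counts have no count over all sites beside them. The fit of sites within 24 nt called 5 of 217 (4 down, 1 up), beside 129 down and 134 up of 15752 sites. The fit per gene called 5 of 252 (4 down, 1 up), beside 125 down and 141 up of 11614 genes. DESeq2 called 1 down and 1 up, beside 88 down and 138 up of 14101 sites. MGC12916 turned to 0.021 with RLE factors and with DESeq2. Taking 1 batch at a time, GATA3-AS1 was between -2.74 and -2.10, RPL13AP5 between 1.67 and 1.74, and PSMG3-AS1, with 3 reads in place of 0, between -4.38 and -2.75. The cause of these shifts was not tested, other than the number of sites compared.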

Other observations

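The genes with these last-exon sites were also read at sites in their introns. In batch 1 intronic sites took 9.08% of the reads of the 660 genes described in siCtrl (8.80 to 9.36%, exact 95% interval), 8.01% under siStarPAP, 5.51% under siPAPa and 7.01% in the library labelled siPAPg. In batch 2 they took 6.58% (6.32 to 6.85%) in siCtrl and 4.80% (4.57 to 5.04%) under siStarPAP. In the table of the double knockdown they took 9.97% in siCtrl and 7.21% in the library labelled siPAPag. Coding genes had 4.54% in siCtrl, 4.72% under siStarPAP, 3.40% under siPAPa and 3.76% in the library labelled siPAPg in batch 1. They had 4.71% in siCtrl and 3.36% in siPAPag in the table of the double knockdown, and 4.36% in siCtrl and 4.29% under siStarPAP in batch 2. The share at noncoding genes was thus lower in every knockdown library than in siCtrl of its table. That of coding genes was lower too in all but siStarPAP of batch 1. The shares at noncoding genes include the reads at the ends of HNRNPA1 and other coding genes, which stood higher in several of the libraries.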
